A study of Mus musculus with 11 samples.

Results

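The genes described here are Trp53, which encodes the transcription factor p53, 6 genes that p53 is known to induce (Mdm2, Cdkn1a, Phlda3, Bax, Ccng1 and Perp) and 3 inhibitors of cyclin-dependent kinases, or Cdks (Cdkn1b, Cdkn2b and Cdkn2c). They were chosen by name, with earlier results of these data known. They are 10 of the 14351 genes with a named probe set on the arrays, and each of the 10 had 1 probe set. They were followed in lung RNA of Balb/c mice over 4 groups of 1-colour arrays. Wild-type (WT) mice were bought from Charles River Laboratories, and mice that lacked both Eif4ebp1 and Eif4ebp2 (4ebp1-/-/4ebp2-/-, called knockout or KO below) came from another laboratory, so genotype and source of the animals cannot be told apart. All mice were put on the purified diet AIN-93M at 5 weeks of age, and the sources used here give no age at collection. Total RNA was measured on 3 WT and 3 KO arrays. Polysomal RNA was measured on 2 WT and 3 KO arrays. It was pooled from fractions 7 to 10 of a 10-fraction gradient, which hold messages with 3 or more ribosomes. Nothing in the labels ties an array to a mouse, so the p-values describe spread from array to array, some of which may be technical.

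p53 is held low by Mdm2, the ubiquitin ligase that marks it for destruction, and it accumulates after DNA damage and other stress. It then switches on genes that halt the cell cycle (Cdkn1a, which encodes p21), lower survival signalling (Phlda3, an inhibitor of Akt) or favour cell death (Bax and Perp), and it induces Mdm2 itself as a negative feedback. Cdk inhibitors of the Cip/Kip family (p21 and p27, the product of Cdkn1b) bind cyclin-Cdk complexes, while those of the INK4 family (p15 from Cdkn2b and p18 from Cdkn2c) bind Cdk4 and Cdk6. The deleted proteins, 4E-BP1 and 4E-BP2, hold the cap-binding factor eIF4E away from the machinery that starts translation. The comparison asks whether a message differed between genotypes in amount, on polysomes, or on polysomes by another amount than in total RNA.

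The values are log2 expression values, as deposited, and a gene entered the tests if it reached 5 on 2 or more of the 11 arrays. Probe sets that did not had a median, called the floor here, that was 2.30 to 2.49 log2 on the 11 arrays. Of the targeted genes, Eif4ebp2 was at 4.50, 5.49 and 4.67 in WT total RNA against 2.61, 3.10 and 3.26 in KO total RNA, and at 5.76 and 6.09 against 3.90, 3.92 and 3.75 in polysomal RNA. Eif4ebp1 was at 8.20 to 8.54 in WT and 7.92 to 7.94 in KO total RNA, and where its probes lie relative to the deletion is not known here. Lung markers were measurable: all 8 alveolar type 2 genes and all 11 endothelial genes with a probe set reached the minimum for a test. Their summed level, the log2 of linear values added over the genes, was 16.6 to 18.0 and 14.0 to 16.3 log2 over the groups. A sum over genes cannot be set against the floor, a median of single probe sets.

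To show the DNA just before these genes, the 250 bases before the transcription start were taken from RefSeq (build GRCm38.p6). In it 9 of the 10 genes had an entry, with 11 start sites. DNA outside these windows, where p53 may also bind, was not searched. The p53 decamer consensus, the 10-base unit of the p53 response element, which reads the same way on both strands, occurred without mismatch before 5 of the 9 genes. They were Trp53, Mdm2, Cdkn1a, Bax and Ccng1, while 7.13% of the 32851 promoter windows of the table hold such a match. A pair of decamers with at most 13 bases between them and at most 1 mismatch in all, searched the same way, occurred before the upstream start of Cdkn1a and before Ccng1, and in 0.505% of all windows. The promoters of the p53-induced genes that differed between genotypes are printed with their decamers in capitals, 5′ to 3′ on the strand of the gene, beside that of Mdm2, which did not pass the genotype test in either RNA. Perp has no entry. Positions are chr17:29090729-29090978 (plus strand) for the upstream start of Cdkn1a, chr1:135765835-135766084 (plus) for Phlda3, chr7:45466899-45467148 (minus) for Bax, chr11:40755287-40755536 (minus) for Ccng1 and chr10:117710759-117711008 (minus) for Mdm2.
Cdkn1a: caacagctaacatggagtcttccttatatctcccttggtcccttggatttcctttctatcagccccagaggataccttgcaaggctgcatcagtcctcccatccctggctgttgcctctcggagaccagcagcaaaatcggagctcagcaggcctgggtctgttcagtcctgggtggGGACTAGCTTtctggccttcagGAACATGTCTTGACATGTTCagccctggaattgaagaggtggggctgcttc
Phlda3: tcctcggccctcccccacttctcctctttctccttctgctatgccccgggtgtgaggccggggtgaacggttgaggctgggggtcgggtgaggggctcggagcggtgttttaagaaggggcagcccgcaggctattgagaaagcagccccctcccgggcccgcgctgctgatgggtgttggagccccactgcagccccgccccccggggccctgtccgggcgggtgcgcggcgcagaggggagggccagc
Bax: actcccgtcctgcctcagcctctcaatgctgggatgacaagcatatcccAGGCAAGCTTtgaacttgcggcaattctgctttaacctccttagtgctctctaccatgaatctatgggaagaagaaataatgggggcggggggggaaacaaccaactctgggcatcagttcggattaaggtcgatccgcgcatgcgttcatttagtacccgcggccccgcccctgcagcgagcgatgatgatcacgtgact
Ccng1: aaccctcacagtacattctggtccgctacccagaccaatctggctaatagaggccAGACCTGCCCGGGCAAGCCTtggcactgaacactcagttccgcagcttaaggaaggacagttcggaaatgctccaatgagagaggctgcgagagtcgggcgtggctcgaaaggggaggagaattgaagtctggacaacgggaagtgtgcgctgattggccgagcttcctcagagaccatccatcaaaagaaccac
Mdm2: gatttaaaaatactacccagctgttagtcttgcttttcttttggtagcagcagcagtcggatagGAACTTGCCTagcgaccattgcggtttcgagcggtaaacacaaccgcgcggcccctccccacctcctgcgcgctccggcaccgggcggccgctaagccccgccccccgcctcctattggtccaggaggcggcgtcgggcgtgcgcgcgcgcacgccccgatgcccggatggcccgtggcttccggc
The Cdkn1a window holds GGACTAGCTT and, closer to the start, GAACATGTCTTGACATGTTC, whose first 10 bases match without mismatch. In the Ccng1 window the pair is AGACCTGCCCGGGCAAGCCT, with no base between its decamers. No decamer without mismatch was found before Phlda3, Cdkn1b, Cdkn2b, either start of Cdkn2c or the downstream start of Cdkn1a, which says only that these letters are not in these windows. The GC box GGGCGG, searched on both strands, was found in windows of 6 of the 9 genes and in 32.7% of all windows. The E2F-type letters TTTCGCGC or TTTGGCGC, searched on both strands, were in none of the 11 windows and in 0.654% of all windows.

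**Figure D1:**
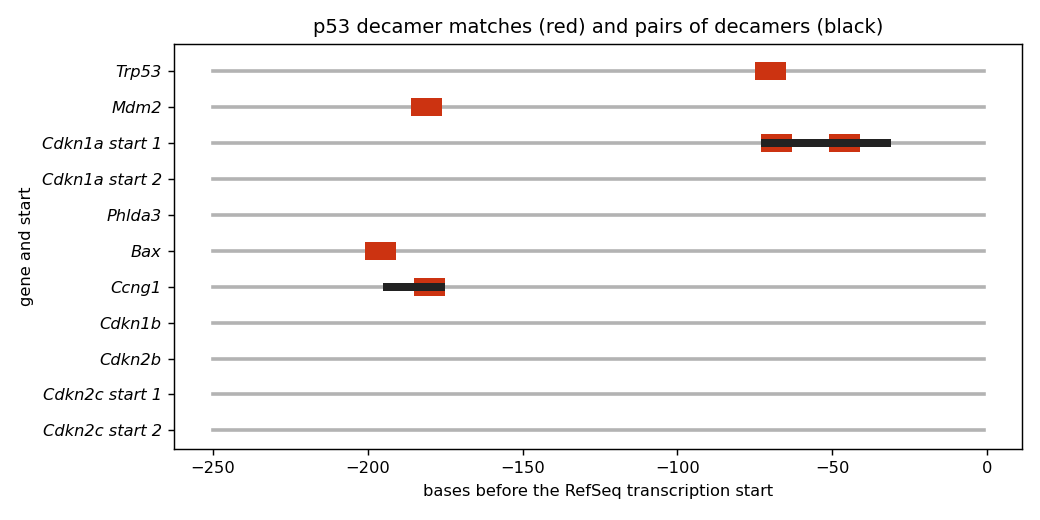
Map of p53 decamer matches in the 250 bases before each RefSeq start of the 9 genes with an entry. Grey lines are the windows, red bars are decamers without mismatch, and black bars are pairs of decamers with at most 1 mismatch; the x axis gives bases before the start. Matches lie before Trp53, Mdm2, the upstream start of Cdkn1a (start 1), Bax and Ccng1, and none before Phlda3 or the Cdk inhibitors Cdkn1b, Cdkn2b and Cdkn2c.

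In total RNA, knockout lungs had more Cdkn1a, Phlda3, Bax, Cdkn2b and Cdkn2c message and less Perp, while Mdm2 and Ccng1 did not pass the test. Thus 6 of the 8 tested genes passed, 5 higher and 1 lower, against 23.2% of the 8085 genes tested (17.2% higher and 5.97% lower). In 6 of the 8 the KO and WT arrays did not overlap, against 42.0% of all genes tested. Their median difference was 0.72 log2 units, against 0.09 over all genes tested. Since the genes were chosen with earlier results of these data known, such comparisons with all genes only describe them and are no test. The share of higher calls over all genes depended on the scaling: 74.3% of the calls were higher with the values as deposited, 60.6% once arrays were quantile normalized and 55.2% once their medians were made equal. In polysomal RNA 3 of the 8 differed, Ccng1, Cdkn2b and Cdkn2c, all higher, against 15.1% of all genes tested (8.36% higher and 6.77% lower), with a median of 0.34 against -0.01. On polysomes the arrays did not overlap in 5 of the 8, against 48.9% of all genes. In lung as a whole, a change in RNA per cell and a change in the number of cells that carry a message cannot be told apart. Adjusted p-values are from limma, fitted over all 11 arrays, with Benjamini-Hochberg adjustment over 13802 probe sets.

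Trp53 itself gave no measurable level. Its probe set read 1.82 to 2.10 log2 on all 11 arrays, below the floor of each array, so nothing can be said of its message from these arrays. Cdkn1b, the gene of p27, also stayed below the minimum on all arrays. Its values were 2.47, 2.55 and 2.55 in WT total and 2.36, 2.42 and 2.26 in KO total RNA, near the floor. On polysomes they were 3.72 and 2.58 in WT and 2.93, 4.10 and 4.27 in KO, with overlapping groups. Each polysomal array lay above each total RNA array, but none reached the minimum for a test.

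**Figure D2:**
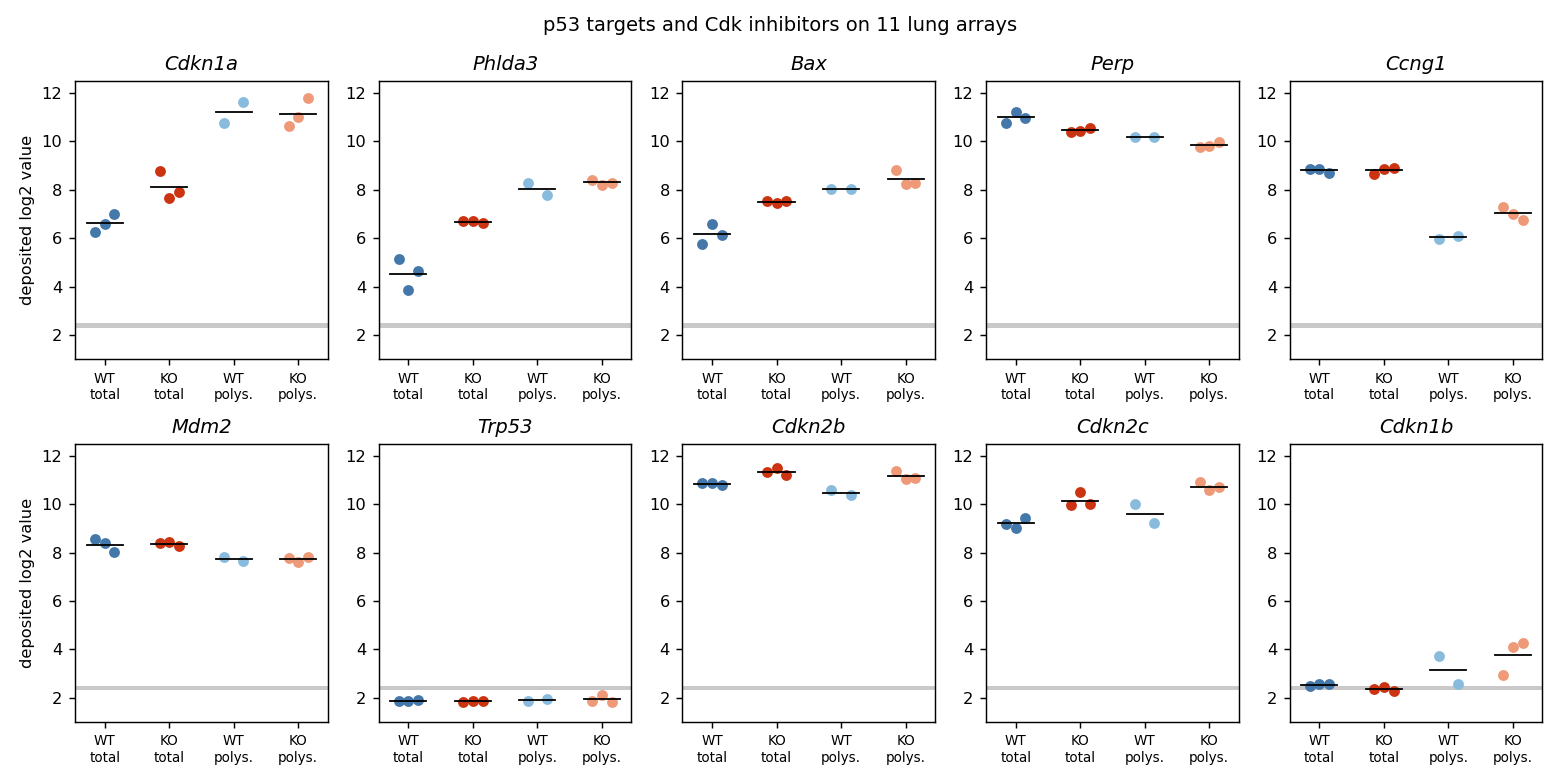
Deposited log2 value (y axis) of the 10 genes on each of the 11 arrays, by genotype and RNA kind; points are arrays, black bars are group means, and the grey band spans the floor of the arrays, 2.30 to 2.49 log2. Cdkn1a, Phlda3 and Bax are lowest in WT total RNA, Ccng1 is lowest in WT polysomal RNA, and Trp53 lies below the band on every array.

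Among the p53-induced genes that act on the cell cycle and survival, Phlda3 had the greatest difference of the 8 in total RNA. It read 5.12, 3.84 and 4.65 log2 on the WT total arrays and 6.69, 6.70 and 6.61 on the KO total arrays. Every KO array thus lay above every WT array. It rose by 2.13 (SE 0.27, n = 3 and 3, adjusted p = 0.0012). Of its WT total values, 2 lie under the minimum of 5, so the size of this rise is less well measured than its direction. On polysomes Phlda3 read 8.26 and 7.80 in WT and 8.41, 8.21 and 8.30 in KO, so the groups overlapped, and the difference of 0.27 (SE 0.30) did not pass (adjusted p = 0.59).

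Cdkn1a, the gene of the Cdk inhibitor p21, read 6.25, 6.60 and 6.99 log2 on the WT total arrays. On the KO total arrays it read 8.77, 7.67 and 7.92, all above the highest WT array. It rose by 1.51 (SE 0.38, n = 3 and 3, adjusted p = 0.019). The spread within groups was wide, with an SD of 0.37 in WT and 0.58 in KO. The call was lost without WT total replicate 1 (1.32, adjusted p = 0.073) and without KO total replicate 1, which holds the highest KO value (1.18, adjusted p = 0.063). On polysomes Cdkn1a was high in both genotypes, at 10.77 and 11.62 in WT and 10.66, 11.003 and 11.80 in KO. The polysomal difference of -0.05 (SE 0.42, adjusted p = 0.96) did not pass, and the groups overlapped.

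Bax, a pore-forming member of the Bcl2 family that opens mitochondria in cell death, read 5.76, 6.58 and 6.15 log2 in WT and 7.54, 7.44 and 7.55 in KO total RNA. The groups did not overlap, and the SD was 0.06 over the KO and 0.41 over the WT arrays. Bax rose by 1.35 (SE 0.21, n = 3 and 3, adjusted p = 0.0027). On polysomes it read 8.04 on both WT arrays and 8.83, 8.25 and 8.27 in KO. These groups did not overlap either, but the difference of 0.42 (SE 0.23) did not pass (adjusted p = 0.26).

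Perp encodes a membrane protein of desmosomes that takes part in p53-dependent death. Among the p53-induced genes named at the start, only Perp passed as lower in knockout, in total RNA. It read 10.78, 11.23 and 10.98 log2 in WT and 10.38, 10.45 and 10.57 in KO total RNA, without overlap. It fell by 0.53 (SE 0.12, n = 3 and 3, adjusted p = 0.012). On polysomes it read 10.19 and 10.17 in WT and 9.79, 9.83 and 9.99 in KO, again without overlap. The polysomal difference of -0.31 (SE 0.13) did not pass (adjusted p = 0.15).

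Ccng1, the gene of cyclin G1, which recruits a phosphatase to Mdm2, did not pass in total RNA and was higher in knockout on polysomes. In total RNA it read 8.87, 8.85 and 8.71 log2 in WT and 8.65, 8.87 and 8.91 in KO, so the groups overlapped, with a mean of 8.81 in each (adjusted p = 0.9996). On polysomes it read 5.96 and 6.09 in WT and 7.30, 7.01 and 6.76 in KO. Each KO polysomal array lay above both WT ones, and Ccng1 rose there by 0.99 (SE 0.15, n = 2 and 3, adjusted p = 0.0037).

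Mdm2 did not pass in either RNA. It read 8.57, 8.38 and 8.02 log2 in WT and 8.40, 8.44 and 8.27 in KO total RNA, a difference of 0.04 (SE 0.14, adjusted p = 0.85). On polysomes it read 7.82 and 7.66 in WT and 7.79, 7.61 and 7.80 in KO, a difference of -0.01 (SE 0.15, adjusted p = 0.98). The groups overlapped in both RNAs.

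The INK4 inhibitors Cdkn2b and Cdkn2c were higher in knockout in both RNA kinds. Cdkn2b read 10.88, 10.86 and 10.78 log2 in WT and 11.33, 11.50 and 11.19 in KO total RNA, and 10.57 and 10.36 against 11.39, 11.04 and 11.08 on polysomes. It rose by 0.50 in total RNA (SE 0.12, adjusted p = 0.017) and by 0.71 on polysomes (SE 0.14, adjusted p = 0.0095). Neither pair of groups overlapped. Cdkn2c read 9.19, 9.003 and 9.44 in WT and 9.96, 10.49 and 9.99 in KO total RNA. It rose there by 0.94 (SE 0.22, adjusted p = 0.0148). On polysomes it read 10.00 and 9.21 in WT and 10.90, 10.58 and 10.70 in KO, a rise of 1.12 (SE 0.25, adjusted p = 0.016). Again no KO array lay as low as a WT array of the same RNA. Both total RNA calls were lost without KO total replicate 2 (Cdkn2b 0.42, adjusted p = 0.071, and Cdkn2c 0.76, adjusted p = 0.060). Both polysomal calls were lost without WT polysomal replicate 2 (Cdkn2b 0.60, adjusted p = 0.068, and Cdkn2c 0.73, adjusted p = 0.11), and neither passed when only the 5 polysomal arrays were fitted (adjusted p = 0.05005 and 0.061).

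Several of the markers of dividing cells that could be tested were higher in knockout beside the INK4 genes. Of 16 listed, 15 had a probe set and 8 were tested. In total RNA 6 rose (median 0.95), against 17.2% of all genes tested. On polysomes 4 rose (median 0.65), against 8.36%. None of these markers was lower. Their summed level was 12.7 to 12.9 log2 in WT total, 13.04 to 13.21 in KO total, 12.6 to 12.8 in WT polysomal and 13.1 to 13.3 in KO polysomal RNA. Among them, the replication helicase subunit Mcm6 rose by 1.06 in total (SE 0.14, adjusted p = 0.0013) and 1.25 in polysomal RNA (SE 0.15, adjusted p = 0.0015), Mcm5 by 1.10 in total RNA (SE 0.13) and the topoisomerase Top2a by 1.66 on polysomes (SE 0.35, adjusted p = 0.014). The call for Top2a was lost without WT polysomal replicate 1 (adjusted p = 0.095). Birc5, Plk1, Aurka, Aurkb, Ccnb2, Bub1 and Bub1b stayed too dim to test, at 1.91 to 4.96 log2. So did Cdk1 (2.40 to 3.52), Ccna2 (2.33 to 2.95) and Ccnb1 (2.31 to 3.14), from the list of Cdks and cyclins read below. The part of dividing cells in the INK4 result was not tested.

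Markers of other cell types also differed in the total RNA comparison in which Cdkn1a, Phlda3 and Bax rose. In that comparison 17.2% of all genes tested were higher and 5.97% lower. Of 11 endothelial markers 7 rose and none fell there, with a summed level of 14.0 to 14.2 log2 in WT and 14.7 to 14.8 in KO total RNA. Smooth muscle and fibroblast markers rose in 5 of 11 cases, with summed levels of 14.0 to 14.3 log2 in WT and 14.98 to 15.03 in KO. All 11 markers of each list were tested. On polysomes, where Ccng1, Cdkn2b and Cdkn2c rose, 1 of 11 endothelial markers was higher and 1 lower. Of 11 smooth muscle and fibroblast markers 1 was higher and 2 lower. Over all genes tested, 8.36% were higher and 6.77% lower on polysomes. There 4 of 8 ciliated and club cell markers (median -0.83), 3 of 10 macrophage markers and 1 of 6 T and B cell markers fell and none rose. Neutrophil, red cell precursor and heart muscle markers each had 1 that rose and none that fell on polysomes, and no alveolar marker passed there. Among other lists in total RNA, 3 of 8 alveolar type 2, 2 of 5 alveolar type 1, 2 of 5 neutrophil, 3 of 7 heart muscle and 1 of 2 red cell precursor markers rose and none fell. Macrophage markers rose in 5 and fell in 3 of 10 cases, ciliated and club cell markers in 1 and 1 of 8, and T and B cell markers in 1 and 1 of 6. The summed level of red cell precursor markers was 7.86 to 8.39 log2 in WT and 9.54 to 10.4 in KO total RNA, and that of heart muscle markers 10.8 to 11.6 and 11.6 to 12.1. Whether a different share of such cells has a part in either comparison was not tested.

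**Figure D3:**
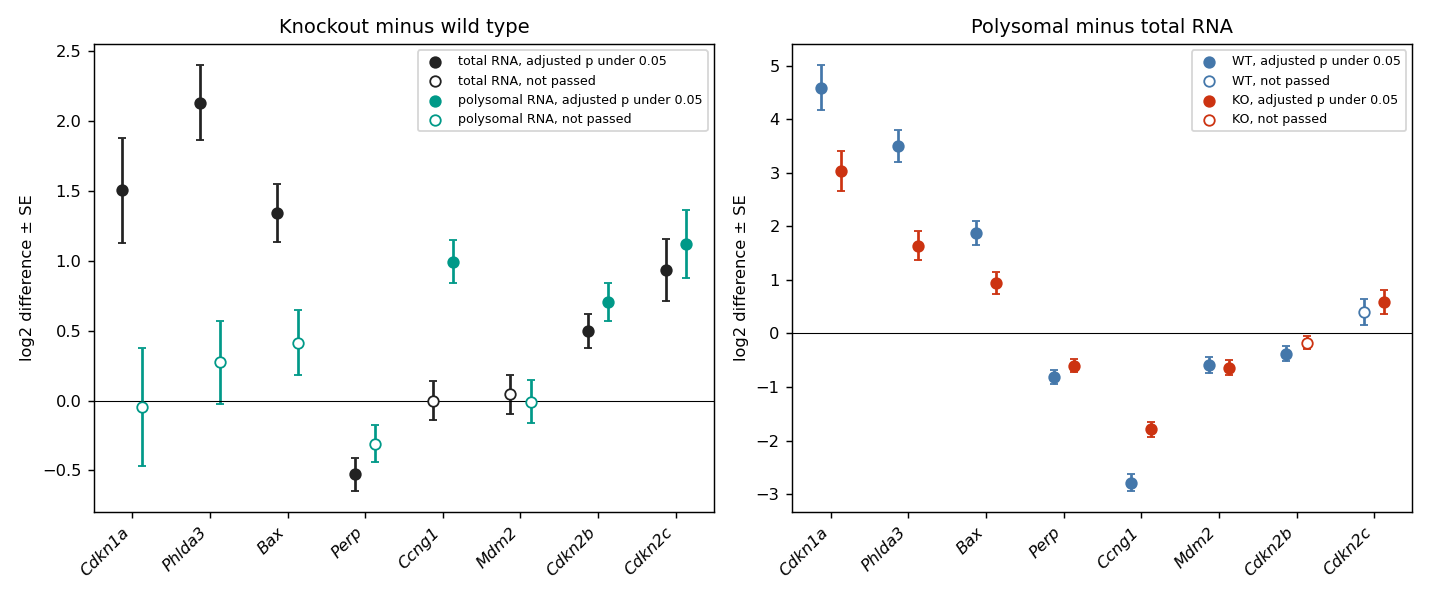
Log2 differences with the standard error of the limma fit (y axis) for the 8 tested genes (x axis). On the left is knockout minus wild type in total and polysomal RNA, on the right polysomal minus total RNA in each genotype; filled points have an adjusted p under 0.05 and open points do not. Cdkn1a, Phlda3 and Bax have filled points above 0 in total RNA and open points on polysomes, Ccng1 the reverse, and Cdkn2b and Cdkn2c filled points above 0 in both.

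Within a genotype, the difference between polysomal and total RNA is read relative to the average message, since the same mass of RNA, 100 ng, was labelled from each. Whether the arrays of both RNA kinds were normalized in the same run is not known here. The lowest value of an array was 0.73 to 0.74 log2 in total RNA and 0.85 to 0.87 in polysomal RNA. In wild type, 3 of the 8 genes were higher and 4 lower on polysomes, against 44.5% and 27.9% (72.4% in all) of the genes tested. In knockout 4 were higher and 3 lower, against 39.5% and 25.7% (65.2% in all). Polysomal and total arrays did not overlap in 7 of the 8 genes in each genotype, against 82.5% of all genes in WT and 76.1% in KO. Cdkn1a was 4.58 higher on polysomes in WT (SE 0.42, adjusted p = 5.6e-06) and 3.03 in KO (SE 0.38, adjusted p = 6.7e-05). Phlda3 was 3.50 higher in WT (SE 0.30, adjusted p = 3.45e-06) and 1.64 in KO (SE 0.27, adjusted p = 0.00040). Its WT total replicates 2 and 3 read 3.84 and 4.65 log2, under the minimum of 5. The size of its WT difference is thus less well measured. Bax was 1.88 higher in WT (SE 0.23, adjusted p = 4.5e-05) and 0.94 in KO (SE 0.21, adjusted p = 0.0027). These 3 genes thus lay to the polysomal side in both genotypes, Bax in KO by the least, and all their polysomal arrays were above all their total RNA arrays. The median over all genes tested was 0.22 in WT and 0.13 in KO, and with quantile normalization it was 0.06 and 0.04. With that normalization Cdkn1a was 4.38 higher on polysomes in WT and 2.91 in KO, Phlda3 3.50 and 1.59, and Bax 1.81 and 0.90.

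At the other end, Ccng1 fell by 2.78 on the log2 scale from total to polysomal RNA in WT (SE 0.15, adjusted p = 2.3e-07) and by 1.79 in KO (SE 0.14, adjusted p = 2.9e-06). Perp fell by 0.82 in WT (SE 0.13, adjusted p = 0.00029) and by 0.60 in KO (SE 0.12, adjusted p = 0.0014). Mdm2 fell by 0.58 in WT (SE 0.15, adjusted p = 0.0062) and by 0.64 in KO (SE 0.14, adjusted p = 0.0024). The WT call for Mdm2 was lost without WT polysomal replicate 2 (adjusted p = 0.051). Of the INK4 genes, Cdkn2b differed by -0.38 in WT (SE 0.14, adjusted p = 0.029) and by -0.17 in KO (SE 0.12, adjusted p = 0.25), Cdkn2c by 0.40 in WT (SE 0.25, adjusted p = 0.17) and by 0.58 in KO (SE 0.22, adjusted p = 0.040). With quantile normalization Cdkn2b differed by -0.62 in WT (adjusted p = 0.0023) and by -0.40 in KO, where it then passed (adjusted p = 0.016), and Cdkn2c by 0.24 in WT and 0.42 in KO (adjusted p = 0.39 and 0.12). The Cdkn2b call in WT was lost without WT total replicate 1, WT total replicate 2 or WT polysomal replicate 2. The Cdkn2c call in KO was lost under 6 of the 11 leave-outs, without the filter and under both other normalizations, and in WT Cdkn2c passed without WT polysomal replicate 2 (0.79, adjusted p = 0.019).

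Whether the genotype difference was another on polysomes than in total RNA was tested by the interaction, the polysomal difference minus the total one. Of the 8 genes, Ccng1 was higher and Phlda3 lower by this test, against 22.3% of all genes tested (8.06% higher and 14.2% lower), and the median was 0.07 against -0.13. For Phlda3 the rise of 2.13 in total RNA stood beside 0.27 on polysomes, an interaction of -1.86 (SE 0.40, adjusted p = 0.013). Its WT total replicates 2 and 3, at 3.84 and 4.65 log2, lie under the minimum of 5, so this size is less well measured. For Ccng1 the difference of 0.00 in total RNA stood beside 0.99 on polysomes, an interaction of 0.99 (SE 0.21, adjusted p = 0.011). Cdkn1a (-1.55, SE 0.56, adjusted p = 0.077) and Bax (-0.93, SE 0.31, adjusted p = 0.058) did not pass. Both are near the threshold: Cdkn1a passed without KO polysomal replicate 3 (adjusted p = 0.043) and Bax without WT total replicate 2 (adjusted p = 0.019) or KO polysomal replicate 1 (adjusted p = 0.030). Perp (0.22, SE 0.18, adjusted p = 0.41), Cdkn2b (0.21, SE 0.18, adjusted p = 0.45), Cdkn2c (0.19, SE 0.33, adjusted p = 0.73) and Mdm2 (-0.05, SE 0.21, adjusted p = 0.89) did not pass. Endothelial markers had a lower polysomal than total RNA difference in 7 of 11 cases and a higher one in none, the direction of Phlda3. The same held for 5 of 11 smooth muscle and fibroblast, 4 of 8 ciliated and club cell, 4 of 10 macrophage, 2 of 8 alveolar type 2, 2 of 5 alveolar type 1 and 2 of 5 neutrophil markers, with none higher. The part of these cells in the Phlda3 value was not tested.

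The other genes of the pathway were read from lists by role. Over all genes tested, 17.2% were higher and 5.97% lower in total RNA (23.2% in all). On polysomes 8.36% were higher and 6.77% lower (15.1% in all). These shares stand beside each list that follows. Of 30 other p53-induced genes 28 had a probe set and 19 were tested. In total RNA 2 rose and 2 fell (median 0.07), near the share over all genes, and none passed on polysomes (median 0.19). Cd82, a membrane protein of the tetraspanin family, rose by 1.22 in total RNA (SE 0.13, adjusted p = 0.00054), and Ei24, a protein of the endoplasmic reticulum, by 0.43 (SE 0.09, adjusted p = 0.0090). Pmaip1, which encodes the death-promoting protein Noxa, fell by 0.85 (SE 0.25, adjusted p = 0.037), and Trp53inp1, a partner of p53 in stress, by 0.28 (SE 0.09, adjusted p = 0.045). Calls for the last pair were lost under 5 and 8 of the leave-outs. On polysomes the smallest p was that of Sesn2, a stress-induced inhibitor of mTORC1 signalling (-0.46, SE 0.14, adjusted p = 0.060).

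Of 21 regulators of p53, 14 were tested, and 3 rose and 2 fell in total RNA (median 0.14) while 1 fell on polysomes (median -0.13). The acetyltransferase Kat5 rose by 1.94 (SE 0.32, adjusted p = 0.0037). Its WT total arrays, at 3.57 to 4.92 log2, all lay under the minimum of 5, so the size of its rise is less well measured. The damage kinase Atm rose by 1.07 (SE 0.22, adjusted p = 0.0085) and the coactivator Crebbp by 0.91 (SE 0.18, adjusted p = 0.0077). The related coactivator Ep300 fell by 0.57 (SE 0.09, adjusted p = 0.0033). Ppp1r13b, a p53-binding protein, fell on polysomes by 0.62 (SE 0.16, adjusted p = 0.034), a call lost under 7 of the leave-outs. Mdm4, the partner of Mdm2, read 3.39 to 4.36 log2 and could not be tested.

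Of the other Cdk inhibitors, Cdkn1c (0.74 in total RNA, SE 0.28, adjusted p = 0.083) and Cdkn2d (0.39 on polysomes, SE 0.23, adjusted p = 0.30) did not pass, and Cdkn2a stayed at 1.97 to 2.11 log2, below the floor. Of 22 Cdks, cyclins, Rb and E2F genes 15 were tested, and 3 rose and 1 fell in total RNA (median 0.25), while 3 rose on polysomes (median 0.16). The D-type cyclins Ccnd3 and Ccnd2, which partner Cdk4 and Cdk6, rose in total RNA by 1.56 (SE 0.16, adjusted p = 0.00056) and 0.48 (SE 0.10, adjusted p = 0.011), and their kinase Cdk4 by 0.72 (SE 0.12, adjusted p = 0.0039). The E2F family member E2f5 fell by 0.48 (SE 0.11, adjusted p = 0.012), a call lost without WT total replicate 1 or KO total replicate 2. On polysomes the Cdk2 partner Ccne2 rose by 1.65 (SE 0.29, adjusted p = 0.0065). Its WT polysomal arrays, at 4.02 and 5.04 log2, lay under or near the minimum of 5, so the size of its rise is less well measured. The pocket proteins Rb1 and Rbl1 rose on polysomes by 0.52 (SE 0.11, adjusted p = 0.016) and 0.54 (SE 0.13, adjusted p = 0.023). Calls for Rb1 and Rbl1 were each lost without WT polysomal replicate 2.

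Of 16 Bcl2 family and caspase genes, the relatives and partners of Bax, 7 were tested. Mcl1, which restrains Bax, fell by 0.32 in total RNA (SE 0.10, adjusted p = 0.042) and by 0.37 on polysomes (SE 0.11, adjusted p = 0.046), calls lost under 8 and 9 of the leave-outs. Bok, a relative of Bax, fell on polysomes by 0.69 (SE 0.08, adjusted p = 0.0015).

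**Figure D4:**
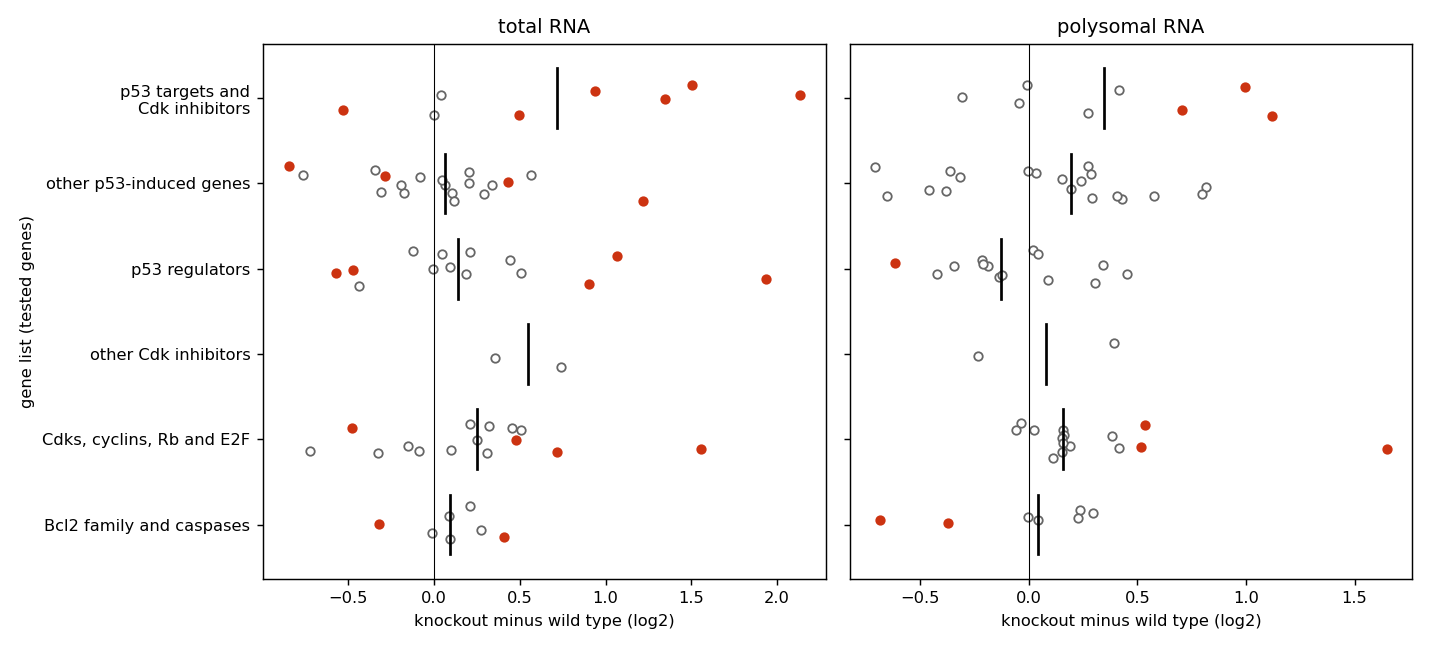
Knockout minus wild type (x axis, log2) of each tested gene in total RNA (left) and polysomal RNA (right), by gene list (y axis, with points spread only for visibility). Filled red points have an adjusted p under 0.05, open points do not, and black bars are list medians. The p53 targets and Cdk inhibitors have a median of 0.72 in total RNA against 0.07 for the other p53-induced genes. All lists were chosen with earlier results of these data known.

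The tested genes whose centred values were most like those of each gene, by the root mean square (RMS) difference over the 11 arrays, were as follows. Cdkn1a was closest to Ckb (0.45), Phlda3 to Nop9 (0.34) and Phpt1 (0.36), and Bax to Pard6a (0.21) and Fxyd1 (0.22). Ccng1 was closest to Ndufaf4 (0.15) and Slc25a16 (0.16), and Perp to Osbpl11 (0.13) and Rbm39 (0.14). Cdkn2b was closest to Rfx7 (0.12) and Pea15a (0.13), and Cdkn2c to Tspyl3 (0.27) and the dividing-cell gene Mcm2 (0.27). The own RMS spread of the 7 genes over the arrays was 0.33 for Cdkn2b to 2.02 for Cdkn1a.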

How the data were processed

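Mouse lung RNA was hybridised to 11 Affymetrix arrays, 1 colour each. The authors deposited log2 values per probe set, made with GCRMA per the submitters' processing notes; its version and the probe grouping are not given in the sources used here. Values ran from 0.73 to 16.7 with array medians of 4.96 to 5.04. Arrays have no read depth, and their number, 2 or 3 a group, limits the precision. Of 26180 probe sets, 15228 matched 1 gene of the RefSeq table and 10952 stayed unnamed. For a gene with several probe sets, the one of highest mean was used.

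Groups were taken from the labels. Tests took in probe sets that reached a log2 value of 5 on 2 or more arrays (13802 probe sets, 8085 genes). With limma 3.58.1 (R 4.3.3), the 4 group means were fitted together on the 11 arrays, with 2-sided moderated tests and Benjamini-Hochberg adjustment, threshold 0.05. Calls in the different comparisons share arrays and are not independent of each other. The fit was tested on simulated data. Figures were drawn with Python 3.11.15 and matplotlib 3.10.9. Alternatives were other filters, normalizations, variance moderation, blocks, fits of the compared arrays only, repeated probe sets counted once, and leaving out each array.

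The 10 genes and all lists were chosen with earlier results of these data known. Named from each pathway list and genotype comparison were up to 4 genes that passed, by smallest p, or else the 1 with the smallest p. From the dividing-cell markers up to 2 that passed were named. The rule would also have named 2 genes from each of the other marker lists; those lists are given as counts and summed levels instead, a change made after the values were seen. For each gene that passed in a genotype comparison, the 2 most alike genes were named by the smallest RMS difference. Some results that these rules pick are not reported here.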

Additional observations from a re-analysis of the deposited data

Results flagged for a closer look

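Results named here had a genotype difference that was another in polysomal than in total RNA, by the limma interaction test (polysomal minus total difference, log2). Groups of 2 or 3 arrays were too small for a test of single outlying arrays. Of the p53 targets, Phlda3 had an interaction of -1.86 and Ccng1 of 0.99. The Phlda3 value rests in part on WT total arrays under the minimum for a test.

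Among other p53-induced genes it was -1.54 for Cd82, 1.66 for Pmaip1 and 0.57 for Trp53inp1. Among p53 regulators it was -2.15 for Kat5, -1.03 for Crebbp, -0.81 for Ppp1r13b and 0.77 for Sirt1. The Kat5 value rests on WT total arrays all under the minimum for a test. Calls for Pmaip1, Trp53inp1 and Kat5 were each lost under 1 of the 11 leave-outs, that of WT polysomal replicate 2. Calls for Sirt1, Ppp1r13b and Crebbp were lost under 9, 7 and 3 of the 11 leave-outs.

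Among cell cycle genes it was -1.62 for Ccnd3, 0.69 for Rbl1, 0.60 for Rb1 and 0.63 for E2f5. Calls for Rbl1, Rb1 and E2f5 were lost under 2, 3 and 4 of the 11 leave-outs. In the Bcl2 family it was -0.78 for Bok. The Phlda3, Cd82, Kat5, Crebbp, Ppp1r13b, Ccnd3 and Bok values are negative, with a smaller or lower knockout difference on polysomes than in total RNA. From each pathway list up to 4 genes that passed are named, by smallest p, so others also passed. Over all genes tested 22.3% passed this test, 8.06% higher and 14.2% lower.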

How the results depend on the processing

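Over 832 alternative values for 40 results on the 8 tested genes, 781 kept direction and side of the threshold, 25 lost and 5 gained a call, and 21 turned direction, none of them called. Where a value moved, the cause was not tested unless the setting itself tests fewer arrays or other genes. The count of genes called in total RNA, 1876, was 4216 without a filter and 964 to 2160 with 1 array left out (964 without KO total replicate 2, 1148 without WT total replicate 1). The polysomal count, 1223, was 684 with only the arrays compared and 600 to 1649 with 1 array left out (600 and 682 without WT polysomal replicates 2 and 1, 753 and 792 without KO polysomal replicates 2 and 1). Of the 3 p53 targets and Cdk inhibitors called there, 1 was left with only the arrays compared, and 1 to 3 with 1 array left out (1 without WT polysomal replicate 2). The interaction count, 1803, was 1052 to 2088 with 1 array left out (1052 without WT polysomal replicate 2, 1137 without KO total replicate 2, 1142 without WT total replicate 1), and 2 to 3 of the 8 genes passed. The polysomal minus total count in WT, 5853, was 10360 without a filter. Without a filter 37.0% of the total RNA calls and 37.4% of the WT polysomal minus total calls were higher, against 74.3% and 61.4%, and with equal array medians 45.1% of the polysomal calls, against 55.3%.

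Set letters in the labels are unexplained. Deviations of same-letter arrays of one RNA kind correlated at -0.05 to 0.12 over 6 pairs. Over 0.1 were 2 of them, both polysomal (0.1168 and 0.1035). Pairs of different letters within one RNA kind correlated at -0.12 to 0.05 over 9 pairs. With 2 WT polysomal arrays the deviations mirror each other, so this check cannot decide whether the letters pair arrays. The letters were used only as an alternative block. With the letter within RNA kind as a replicate block, the polysomal count was 776, the interaction count 1178 and 1 of the 8 genes passed the interaction test: Ccng1 (0.87, adjusted p = 0.035), while Phlda3 did not (-1.89, adjusted p = 0.053). With the letter as a replicate block over all arrays these counts were 995, 1289 and 2. Polysomal minus total calls in WT, 7 of the 8 genes, were 6 over all arrays and 5 within RNA kind: Cdkn2b was lost in both (-0.23 and -0.07, adjusted p = 0.21 and 0.81) and Mdm2 within RNA kind (-0.59, adjusted p = 0.087).

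Uncalled values that turned were Mdm2 in total RNA (-0.06 by quantile normalization, -0.05 with equal medians, -0.11 to 0.17 with 1 array left out), Mdm2 on polysomes (-0.09 to 0.07) and the Mdm2 interaction (0.04, 0.00, and -0.18 to 0.10). Cdkn1a on polysomes was 0.09 with the letter as a block, 0.20 within RNA kind and -0.47 to 0.38 with 1 array left out. Ccng1 in total RNA was 0.03 with the block and -0.05 to 0.08. Cdkn2b polysomal minus total in KO was 0.02 with the block within RNA kind, and the Cdkn2c interaction was -0.21 to 0.58. Leaving out a WT polysomal array leaves 1, assumed to vary like the other groups. Each gene had 1 probe set, so other probe sets could not be tried. Signal over background limits Trp53, below the floor on every array, and Cdkn1b, near it in total RNA.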

Other observations

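Several pathway genes not described above for this readout, chosen after their values were seen, lay apart from the average message in polysomal minus total RNA in both genotypes. Among p53-induced genes, the antiproliferative gene Btg2 was 2.25 higher on polysomes in WT (SE 0.20) and 2.08 in KO (SE 0.18), while the RNA-binding Zmat3 fell by 2.44 in WT (SE 0.24) and by 2.16 in KO (SE 0.22). Usp7, the deubiquitinase of Mdm2 and p53, was 2.47 higher in WT and 2.37 in KO. Its WT total arrays, at 4.88 to 5.44 log2, lay under or near the minimum of 5, so this size is less well measured. Kat5 was 4.24 higher in WT and 2.09 in KO, with all WT total arrays under the minimum. Of the other Cdk inhibitors, Cdkn2d was 2.05 higher in WT and 2.08 in KO, and Cdkn1c 1.98 and 1.01. Over the 19 other p53-induced genes tested, 4 were higher and 7 lower on polysomes in WT, and 6 higher and 5 lower in KO. Over all genes tested, 44.5% were higher and 27.9% lower in WT, and 39.5% and 25.7% in KO.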
